A study of Homo sapiens with 10 samples.

Results

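The kallikrein-related peptidases are secreted serine proteases encoded side by side on human chromosome 19. The 10 genes described here are KLK1, KLK5, KLK6, KLK7, KLK8, KLK10, KLK11, KLK12, KLK13 and KLK14, found by matching these symbols to Ensembl identifiers among the 58050 genes of the deposited expression table. All 10 were matched, and all 10 lie in the cluster at chr19:50819146-51084245 of hg38 in the GENCODE 44 annotation. The set was chosen by the TPM of KLK6 and KLK10, which were known to be lower in the comparison described here, and the question was whether the other genes of the cluster were lower too. The levels of the members in this comparison are therefore given as a description, and no p-value is printed for a member. Where members are counted by an adjusted p, the count is a description too.

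Poly(A) RNA was sequenced from HCT116, an established human colorectal carcinoma cell line, as 5 HCT116-WT and 5 HCT116-CD276KO libraries. CD276 (B7-H3) is a membrane protein of the B7 family of immune checkpoint molecules. HCT116-CD276KO cells had been electroporated with Cas9 protein bound to a guide RNA against CD276, and per the study's methods they are 1 single cell clone. A scrambled guide served as control in the editing protocol, but whether the sequenced HCT116-WT cells had received it is not given in the sources used here. Both groups grew in the same medium with serum, in separate flasks and without macrophages or drug. The 5 libraries of a group are described as biological replicates, without saying how far their cultures were separate. The tests therefore measure the spread between these samples, and an effect of the edit cannot be told apart from a difference between a clone and its parent line.

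Kallikrein-related peptidases are made as inactive precursors, and most become active when a trypsin-like protease, often another kallikrein, removes a short propeptide. In skin, KLK5 and KLK7 cut the desmosomal proteins that hold outer cells together, and inhibitors of the SPINK family restrain them. Several members also cleave protease-activated receptors, while KLK1 releases kinin peptides from kininogen, and in colorectal and other carcinomas the expression of several members differs from that in normal epithelium.

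Values are TPM, a level per unit of transcript length in which the genes of each library sum to the same total. The study gives an average sequencing depth per sample, but no read counts were analysed, so the number of reads behind a single value is not known here. CD276 itself was at 45.3 ± 6.17 TPM in HCT116-WT and 5.46 ± 1.21 TPM in HCT116-CD276KO (mean ± SD, n = 5 each), or 12.1% of the HCT116-WT mean. Of 9 colon epithelial markers, 6 were expressed in all 10 libraries. EPCAM, KRT8, KRT18, KRT19 and CDH1, which mark epithelia in general, bear out the label of an epithelial line. Of the markers closer to intestine, CDX2 was expressed (6.78 to 12.2 TPM), whereas KRT20, VIL1 and CDX1 stayed under 1 TPM in each library. The colon part of the label is thus borne out by CDX2 alone. The summed level of the 9 markers was 4182 to 4955 TPM in HCT116-WT and 3317 to 3784 TPM in HCT116-CD276KO. Of the 6 expressed markers, 5 were lower with a limma adjusted p under 0.05, beside 4.09% of all genes tested. EPCAM (limma adjusted p = 0.0322, groups overlapping) and KRT19 (limma adjusted p = 0.0486) were near that limit, and their calls were not followed under other processing. The part of this lower marker level in the kallikrein values was not tested. Of 9 markers of blood, endothelial, fibroblast and liver cells, 7 stayed under 1 TPM in all libraries, and the whole list summed to 18.5 to 22.7 TPM in HCT116-WT and 11.1 to 19.1 TPM in HCT116-CD276KO. Only CD68 (6.01 to 14.75 TPM) and COL1A1 (4.54 to 8.84 TPM) of that list were above this level. In HCT116-WT library 3 and HCT116-CD276KO library 2 the deviations of genes from their means rose with GC content (Spearman's rho over genes 0.63 and 0.48), against -0.34 to 0.0037 in the other 8 libraries, and values with both left out are given below.

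RefSeq promoter windows (GRCh38.p14, the 250 bases before the most upstream listed start) were matched for 8 of the 10 members, and KLK1 and KLK8 had none in the table. Shown here are the parts of the KLK5, KLK6 and KLK7 windows that lie upstream of every exon annotated to the gene, and, for comparison, that of KLK13, whose groups overlapped. Each is on the minus strand of chromosome 19, written 5′ to 3′, and capitals mark a GC box (GGGCGG) or a CACCC motif in either orientation. The stretches are chr19:50953094-50953288 for KLK5 (195 bases), chr19:50969674-50969841 for KLK6 (168 bases), chr19:50984100-50984314 for KLK7 (215 bases) and chr19:51065115-51065342 for KLK13 (228 bases).
KLK5: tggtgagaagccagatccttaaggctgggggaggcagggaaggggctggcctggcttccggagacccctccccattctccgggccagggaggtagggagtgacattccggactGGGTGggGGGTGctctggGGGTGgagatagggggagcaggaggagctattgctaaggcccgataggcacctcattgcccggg
KLK6: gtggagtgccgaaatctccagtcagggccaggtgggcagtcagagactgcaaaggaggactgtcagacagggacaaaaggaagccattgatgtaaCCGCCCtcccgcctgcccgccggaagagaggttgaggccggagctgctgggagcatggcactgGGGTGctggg
KLK7: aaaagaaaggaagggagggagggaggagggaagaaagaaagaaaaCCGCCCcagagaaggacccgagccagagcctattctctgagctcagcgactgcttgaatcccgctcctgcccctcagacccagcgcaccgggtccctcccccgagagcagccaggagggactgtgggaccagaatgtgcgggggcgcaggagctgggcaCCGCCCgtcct
KLK13: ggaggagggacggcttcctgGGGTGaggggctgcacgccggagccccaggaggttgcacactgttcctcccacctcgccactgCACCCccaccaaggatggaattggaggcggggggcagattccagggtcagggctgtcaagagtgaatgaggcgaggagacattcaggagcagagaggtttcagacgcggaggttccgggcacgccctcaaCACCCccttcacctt
In the full 250 bases, the GC box, which Sp1-family factors bind, occurred 3 times at KLK6, 2 times at KLK7 and 2 times at KLK13, and was absent from KLK5 and KLK10. The 2 GC boxes of KLK13 overlap. A GC box was in 42.6% of 35116 promoter windows of the same length. CACCC, a motif of Krüppel-like factors, occurred 4 times at KLK5, 3 times each at KLK11 and KLK13, 2 times at KLK12 and 1 time each at KLK6, KLK7 and KLK10, and was in 54.7% of all windows. It was thus in the windows of KLK5, KLK6, KLK7 and KLK10, whose groups did not overlap, and also in those of KLK11, KLK12 and KLK13, whose groups did. The KLK14 window held no CACCC, and the groups of KLK14, under 1 TPM in each library, did not overlap either. A TATA box (TATAAA, in 10.7% of all windows), an AP-1 motif (TGANTCA, 6.57%), a grainyhead-like motif (AACCGGTT, 0.117%) and the steroid receptor core motif (AGAACA, 12.4%) were found in none of the 8 windows on either strand. CG dinucleotides numbered 6 at KLK5, 8 at KLK10 and 12 each at KLK6, KLK7 and KLK13, beside a median of 11 over all windows. The KLK10 and KLK11 windows have 0 bases, and the KLK12 window 22 bases, upstream of every exon annotated to the gene. These windows are not printed, and their motif counts come wholly or mostly from inside the annotated gene.

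Of the 10 members, KLK5, KLK6, KLK7 and KLK10 were lower in every HCT116-CD276KO library than in any HCT116-WT library at levels above 1 TPM in HCT116-WT. Groups that did not overlap, lower in HCT116-CD276KO, were found in 6.19% of all genes tested. KLK8 and KLK1 had overlapping ranges with slightly lower means, and KLK11, KLK12, KLK13 and KLK14 were under 1 TPM in all 10 libraries. KLK5 (ENSG00000167754, chr19:50943303-50953093), the trypsin-like member that can activate other kallikreins, was at 1.45, 1.56, 1.53, 1.90 and 1.47 TPM in HCT116-WT libraries 1 to 5. In HCT116-CD276KO libraries 1 to 5 it was at 0.44, 0.66, 0.46, 0.28 and 0.39 TPM. The highest knockout library was thus below the lowest HCT116-WT library, and the mean was 28.2% of that in HCT116-WT, the lowest ratio among the 6 members tested. KLK5 passed the expression filter, a mean over the 10 libraries of 1 TPM, only through its HCT116-WT level.

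KLK7 (ENSG00000169035, chr19:50976468-50984099), the chymotrypsin-like partner of KLK5 in skin shedding, was at 22.16, 21.74, 24.03, 21.52 and 21.43 TPM in HCT116-WT. The HCT116-CD276KO libraries held 10.70, 12.04, 10.77, 11.59 and 11.84 TPM. Its levels were 22.2 ± 1.07 TPM in HCT116-WT and 11.4 ± 0.618 TPM in HCT116-CD276KO (SD, n = 5), and the knockout mean was 51.4% of the HCT116-WT mean.

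KLK6 (ENSG00000167755, chr19:50958631-50969673), also named neurosin, is a trypsin-like protease of extracellular matrix and myelin proteins. It was at 24.49, 22.82, 26.05, 24.62 and 23.74 TPM in HCT116-WT and at 8.78, 11.85, 7.92, 8.41 and 9.63 TPM in HCT116-CD276KO. The lowest HCT116-WT library lay well above the highest knockout library, which was library 2, and the knockout mean was 38.3% of the HCT116-WT mean. KLK10 (ENSG00000129451, chr19:51012739-51020175), first described as a gene of normal epithelial cells that is lost in some breast tumour lines, was at 15.77, 12.35, 19.16, 15.48 and 13.87 TPM in HCT116-WT. It was at 5.32, 6.32, 5.82, 5.91 and 7.33 TPM in HCT116-CD276KO. Its HCT116-WT libraries varied more than those of KLK6, library 3 being highest and library 2 lowest, yet none reached the knockout range, and the knockout mean was 40.1% of the HCT116-WT mean.

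KLK8 (ENSG00000129455, chr19:50996007-51002711), or neuropsin, a trypsin-like protease known for cutting adhesion proteins in brain and skin, had the highest level of all members in each of the 10 libraries. It was at 35.46, 45.71, 34.81, 36.07 and 31.14 TPM in HCT116-WT and at 26.42, 27.85, 36.23, 27.36 and 33.84 TPM in HCT116-CD276KO. The ranges overlapped, since knockout libraries 3 and 5 lay among the HCT116-WT libraries, and the knockout mean was 82.8% of the HCT116-WT mean. KLK8 lies between KLK7 and KLK10 along the chromosome.

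KLK1 (ENSG00000167748, chr19:50819146-50823787), tissue kallikrein, lies at the end of the cluster and apart from the others. It was at 2.43, 2.58, 2.68, 2.5 and 2.63 TPM in HCT116-WT and at 2.40, 2.58, 1.78, 2.70 and 2.06 TPM in HCT116-CD276KO. Its knockout libraries reached both above and below the HCT116-WT range, with a mean at 89.9% of the HCT116-WT mean.

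**Figure D1:**
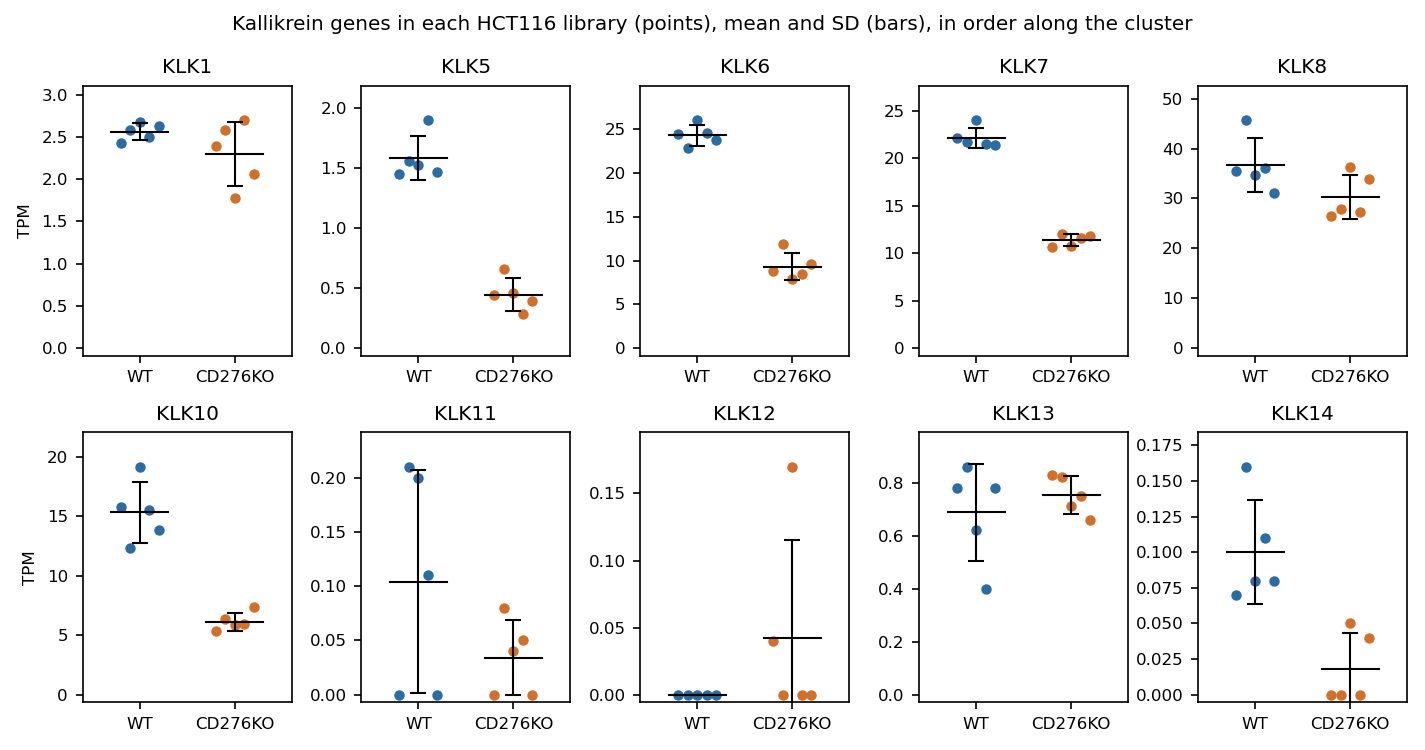
TPM of the 10 kallikrein genes (vertical axes, a separate scale for each gene) in the 5 HCT116-WT and 5 HCT116-CD276KO libraries (points), with the mean and SD as bars. The points of the groups do not overlap for KLK5, KLK6, KLK7, KLK10 and KLK14, while those of KLK1, KLK8, KLK11, KLK12 and KLK13 do; KLK14 stays at or below 0.16 TPM throughout.

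The 4 remaining members were near the floor of the table. KLK13 (ENSG00000167759) was at 0.78, 0.86, 0.62, 0.40 and 0.78 TPM in HCT116-WT and at 0.83, 0.82, 0.71, 0.75 and 0.66 TPM in HCT116-CD276KO, with a knockout mean at 110% of the HCT116-WT mean and overlapping ranges. Of the 10 members, KLK13 and KLK12 were those with a higher mean in HCT116-CD276KO. KLK14 (ENSG00000129437), an activator of protease-activated receptor signalling, was at 0.07, 0.16, 0.08, 0.11 and 0.08 TPM in HCT116-WT and was listed at 0 in HCT116-CD276KO libraries 1, 2 and 4 and at 0.05 and 0.04 TPM in libraries 3 and 5. Its groups do not overlap, but all its values are at or below 0.16 TPM, and the number of reads behind them is not known here. KLK11 (ENSG00000167757) ranged from 0 to 0.21 TPM in HCT116-WT and from 0 to 0.08 TPM in HCT116-CD276KO. KLK12 (ENSG00000186474) was listed at 0 in all HCT116-WT libraries and reached 0.17 TPM in HCT116-CD276KO library 3.

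The other 6 kallikrein genes of the cluster were all under a mean of 1 TPM and were not tested. KLK4, a protease of tooth enamel formation, was at 1.24, 0.39, 0.32, 0.82 and 0.48 TPM in HCT116-WT and at 0.25, 0.31, 0.34, 0.41 and 0.28 TPM in HCT116-CD276KO, with overlapping ranges. KLK2 and KLK9 were listed at 0 in all 10 libraries. KLK3, which encodes prostate-specific antigen, and KLK15 were each above 0 in 1 library, and the pseudogene KLKP1 stayed at or below 0.04 TPM.

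Transcripts that overlap the members were scarcely detected. KLK8 shares its strand with the longer gene ENSG00000269741, which was at 0.20, 0.10 and 0.05 TPM in HCT116-WT libraries 3, 4 and 5 and listed at 0 in the other 7 libraries. The antisense RNAs ENSG00000269495, ENSG00000267879 and ENSG00000268739, which lie across KLK5 to KLK10, stayed at or below 0.54 TPM. The library kit keeps strand, but whether counting used it is not given in the sources used here, and how reads in shared exons were divided is not either.

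Differences were estimated with limma on log2(TPM + 1) over the 13581 genes whose mean reached 1 TPM, of which 6 are members. The log2 difference, HCT116-CD276KO minus HCT116-WT, was -1.31 for KLK6 (SE 0.097), -1.19 for KLK10 (SE 0.11), -0.90 for KLK7 (SE 0.065) and -0.84 for KLK5 (SE 0.11). For KLK8 it was -0.26 (SE 0.12) and for KLK1 -0.12 (SE 0.10). All 6 were below the median of all genes, -0.086. The added 1 TPM shrinks the difference of a low gene, and the log2 ratio of the mean TPM, without it, was -1.83 for KLK5, beside -1.39 for KLK6, -1.32 for KLK10, -0.96 for KLK7, -0.27 for KLK8 and -0.15 for KLK1. On that ratio KLK5 had the largest difference of the 6 and on the log2(TPM + 1) scale KLK6 had.

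By an adjusted p under 0.05 and at least a 2-fold difference, 2 members were lower, KLK6 and KLK10, beside 0.464% of all genes tested. By the adjusted p alone, 4 members were lower, KLK5, KLK6, KLK7 and KLK10, beside 4.09% of all genes, and none was higher. KLK6 and KLK10 were the reason for the choice of the set and KLK5 entered the fit only through its HCT116-WT level, so these counts are a description and nothing is read from the shares. KLK5, KLK6, KLK7 and KLK10 were each lower by the adjusted p in all 18 fits, the reported fit included. KLK1 and KLK8 passed in 0 of 18. For the same reasons, these passes and the counts below are a description and are no test of the members. The fits cover the removal of any 1 library. With HCT116-WT library 3 and HCT116-CD276KO library 2 both left out, the log2 difference was -1.37 for KLK6, -1.12 for KLK10, -0.89 for KLK7 and -0.90 for KLK5. With no filter on level, all 10 members entered the fit, 4 were lower by the adjusted p (1.47% of 30818 genes) and 5 had groups that did not overlap (3.38%), the fifth being KLK14.

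**Figure D2:**
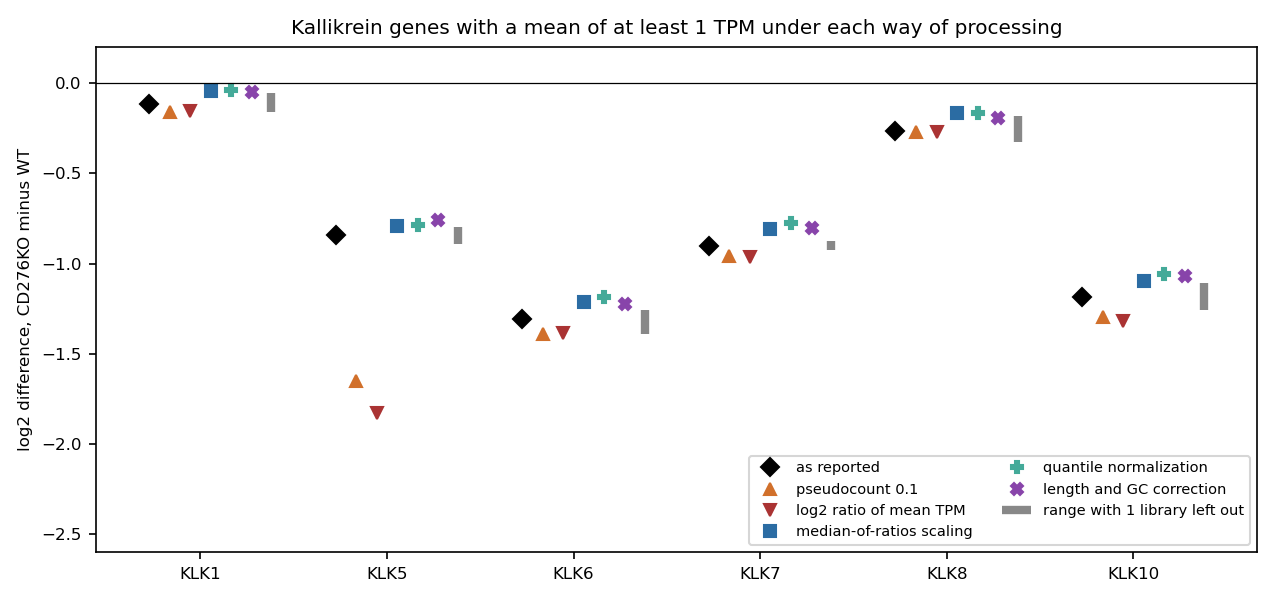
Log2 difference (HCT116-CD276KO minus HCT116-WT, vertical axis) of the 6 kallikrein genes tested, as reported (diamonds), under 5 other ways of computing it (other symbols) and as the range when 1 library at a time is left out (grey bars). KLK5, KLK6, KLK7 and KLK10 lie at or below -0.76 in all of them, KLK5 moves from -0.84 to -1.65 with a pseudocount of 0.1 and lies at -1.83 as the ratio of mean TPM, and KLK1 and KLK8 lie between 0 and -0.33.

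The makeup of the family differed between the groups. The 10 members summed to 104 ± 5.56 TPM in HCT116-WT (95.1 to 109 TPM) and to 60.8 ± 4.62 TPM in HCT116-CD276KO (54.9 to 65.8 TPM), so the ranges did not overlap. The sum holds KLK6 and KLK10, whose lower levels chose the set. Its lower level and the shares and ratios below therefore follow in part from that choice. KLK8 made up 35.3 ± 4.13% of this sum in HCT116-WT and 49.8 ± 4.51% in HCT116-CD276KO, while KLK6 went from 23.6 ± 1.43% to 15.4 ± 2.44% (SD, n = 5). In HCT116-WT, KLK8 ranked highest, followed by KLK6, KLK7, KLK10, KLK1, KLK5 and KLK13. KLK6 was above KLK7 within each of the 5 HCT116-WT libraries and within 0 of the 5 knockout libraries, although the ranges of these neighbours in the order overlapped in both groups. KLK5 was above KLK13 in 5 of 5 HCT116-WT libraries and in 0 of 5 knockout libraries. The ratio of KLK6 to KLK10 within a library was 1.61 ± 0.182 in HCT116-WT and 1.52 ± 0.235 in HCT116-CD276KO, less apart than the spread, whereas that of KLK8 to KLK6 was 1.51 ± 0.282 and 3.34 ± 0.814.

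In the reported fit, the tested genes within 500 kb of the cluster and outside it did not pass the adjusted p. From 500 kb before the cluster to 500 kb after it, 88 genes other than kallikreins were in the table, some of them inside the cluster. Of these, 17 were tested, all outside the cluster. By the limma adjusted p, 0 of these 17 differed, and 2 had an unadjusted p under 0.05, which 21.9% of all genes tested had. Their log2 differences ran from -0.16 to 0.41 with a median of 0.016, beside -0.086 for all genes tested. The nearest tested gene beyond KLK1, the transcribed pseudogene C19orf48P, was at 104 TPM in HCT116-WT and 116 TPM in HCT116-CD276KO (log2 difference 0.15, SE 0.098, limma adjusted p = 0.384). The nearest beyond KLK14, CTU1, which encodes a tRNA thiolation enzyme, was at 9.62 and 9.07 TPM (log2 difference -0.073, SE 0.16, limma adjusted p = 0.813). ETFB, a subunit of the mitochondrial electron transfer flavoprotein, was at 105 and 117 TPM, and EMC10, a subunit of the membrane protein insertion complex of the endoplasmic reticulum, at 89.6 and 93.5 TPM. With the length and GC correction ETFB did pass, as higher in HCT116-CD276KO (limma adjusted p = 0.0323). On the log2(TPM + 1) scale, none of the 17 had a difference as far below 0 as those of KLK5, KLK6, KLK7, KLK8 or KLK10.

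**Figure D3:**
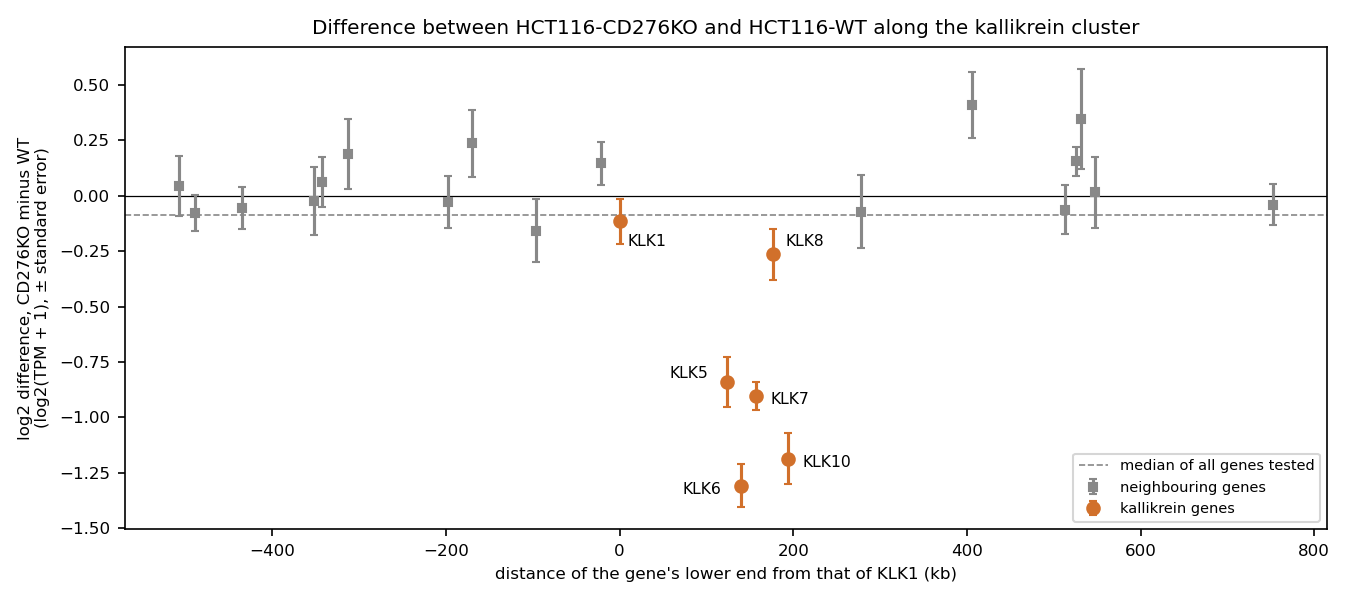
Log2 difference with its standard error (vertical axis, log2(TPM + 1) scale) of the 6 tested kallikrein genes (orange) and the 17 tested genes within 500 kb of the cluster (grey), against the distance of each gene's lower end from that of KLK1 (horizontal axis, kb). KLK5, KLK6, KLK7 and KLK10 lie between -1.31 and -0.84, KLK8 lies among them in position but at -0.26, and the neighbours lie between -0.16 and 0.41.

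The other genes of the kallikrein system were read from lists of inhibitors, receptors, substrates, related proteases and possible regulators. These lists were chosen with earlier results of these data known. Their counts and adjusted p-values are therefore a description and are no test of the lists. By the limma adjusted p, 4.09% of all genes tested were lower and 0.781% higher. Among 12 listed proteases that activate or resemble kallikreins, 5 were tested and 3 were lower by the limma adjusted p. PRSS22, a tryptase-like protease of epithelia, was at 4.08 ± 0.737 TPM in HCT116-WT and 1.33 ± 0.262 TPM in HCT116-CD276KO (log2 difference -1.12, SE 0.13, limma adjusted p = 0.000398). ST14, the membrane protease matriptase, which can activate prostasin and receptor targets at the cell surface, went from 73.1 ± 5.52 to 51.4 ± 4.01 TPM (-0.50, SE 0.074, limma adjusted p = 0.00254). PRSS8, prostasin, went from 31.5 ± 3.55 to 22.01 ± 1.501 TPM (-0.49, SE 0.083, limma adjusted p = 0.00569), a call that was lost with quantile normalization (adjusted p = 0.0554). For each of the 3 the groups did not overlap, and the median of the 5 tested was -0.49.

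Of 15 listed inhibitors 7 were tested, with 1 lower and 1 higher. SERPINA5, the protein C inhibitor, which inhibits several kallikreins, fell from 2.37 ± 0.327 to 0.776 ± 0.243 TPM (-0.93, SE 0.13, limma adjusted p = 0.00129), and it passed the expression filter only through its HCT116-WT level. SERPINA1, alpha-1-antitrypsin, rose from 2.24 ± 0.678 to 3.93 ± 0.568 TPM (0.62, SE 0.15, limma adjusted p = 0.0361), a call that was lost in 12 of 17 alternatives. The median of the 7 was -0.11. Of 7 genes for protease-activated receptors and the kinin pathway 2 were tested, and F2RL1, which encodes protease-activated receptor 2, fell from 178 ± 19.1 to 117 ± 16.7 TPM (-0.61, SE 0.11, limma adjusted p = 0.00711).

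Of 12 listed extracellular substrates 6 were tested and 2 were lower. CDH1, the epithelial adhesion protein E-cadherin and also a marker on the colon epithelial list, fell from 42.7 ± 4.92 to 20.4 ± 5.73 TPM (-1.07, SE 0.16, limma adjusted p = 0.00311). DSC2, a desmosomal cadherin, fell from 18.1 ± 2.64 to 10.5 ± 2.08 TPM (-0.74, SE 0.14, limma adjusted p = 0.0119). The median of the 6 was -0.45, and the groups did not overlap for either gene.

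Kallikreins are expressed in squamous epithelia, and of 15 squamous differentiation genes 6 were tested and 2 were lower. KLF4, a zinc finger factor of epithelial differentiation, was at 30.21, 29.76, 31.92, 28.17 and 28.65 TPM in HCT116-WT and at 11.84, 9.82, 10.08, 11.44 and 12.91 TPM in HCT116-CD276KO. That is a log2 difference of -1.34 (SE 0.081, limma adjusted p = 1.88e-06), the largest of the listed genes outside the family on the log2(TPM + 1) scale. With a pseudocount of 0.1, PRSS22 (-1.55) and SERPINA5 (-1.53) lay further from 0 than KLF4 (-1.40). OVOL1, a zinc finger repressor in skin differentiation, fell from 5.32 ± 0.530 to 3.60 ± 0.620 TPM (-0.47, SE 0.11, limma adjusted p = 0.0360), a call that was lost in 11 of 17 alternatives. Of 10 steroid and retinoid receptors, among them factors known to regulate kallikrein genes in hormone-responsive tissue, 4 were tested, with 0 passing the limma adjusted p and 0 an unadjusted p under 0.05. The expressed receptors RARG, RARA and VDR went from 37.4 to 35.4, from 19.9 to 18.1 and from 8.85 to 7.51 TPM, and the sign of the RARG difference (-0.080) turned with 2 of the scalings.

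Over these lists and the neighbours together, 47 of 165 genes were tested, 9 were lower and 1 was higher by the limma adjusted p, and 3 of the 9, KLF4, PRSS22 and CDH1, were also at least 2-fold lower. CDH1 fell short of 2-fold with median-of-ratios scaling (-0.97), quantile normalization (-0.95) and the length and GC correction (-0.98), and with both GC-shifted libraries left out (-0.95), and SERPINA5 passed it with a pseudocount of 0.1 (-1.53). Of all 13581 genes, 4.09% were lower and 0.781% higher by the adjusted p. The median difference of the 47 was -0.080.

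Genes with the profile most like KLK6 over the 10 libraries were found by the root mean square difference of log2(TPM + 1), each gene centred on its HCT116-WT mean. The closest was TIMM17B (0.10), a subunit of the mitochondrial import channel, at 28.2 ± 2.31 and 10.7 ± 0.910 TPM. PKP3 (0.14), a desmosomal plaque protein, followed at 71.2 ± 11.1 and 29.4 ± 3.00 TPM. Next were CGREF1 (0.15), a secreted growth regulator, CAPN1 (0.16), the large subunit of calpain 1, and PRRC2A (0.17). CGREF1 was at 2.04 TPM in HCT116-WT and 0.376 TPM in HCT116-CD276KO, and passed the expression filter only through its HCT116-WT level. Its log2 difference was -1.15, and -2.21 with a pseudocount of 0.1. KLK10 was at rank 6 among the genes tested (0.18), KLK7 was at rank 27 and KLK5 at rank 46, whereas KLK8 and KLK1 were at ranks 2273 and 4923. For KLK10 the order was KRTAP2-3 (0.13), a hair keratin-associated protein gene, CAPN1 (0.16), TIMM17B (0.17), PKP3 (0.17) and CGREF1 (0.18), with KLK6 at rank 7, KLK7 at rank 17 and KLK5 at rank 42. CAPN1, TIMM17B, PKP3 and CGREF1 thus stood among the 5 closest to both genes. The ranking rests mainly on the difference between the groups, which set these genes apart from most others. KLK6 and KLK10 were both chosen for their lower levels, so their closeness to each other follows in part from that choice.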

How the data were processed

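RNA of 10 HCT116 samples was sequenced as 50-base single reads after poly(A) selection with a kit that keeps strand. Per the labels and the study's methods, the authors aligned reads to GRCh38 (primary assembly) with STAR 2.5.2b and quantified the Ensembl 86 (GENCODE 25) genes with RSEM 1.3.0 and featureCounts 1.5.1. The deposited table holds TPM for each of 58050 genes and each library, and which program gave it is not given in the sources used here. Symbols were found for 56947 identifiers. Positions are from GENCODE 44 on hg38.

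The 13581 genes whose mean reached 1 TPM were tested with limma 3.58.1 in R 4.3.3, on log2(TPM + 1), with genotype as the only term, a variance trend with level, and Benjamini-Hochberg adjustment over all of them. A gene was called at an adjusted p under 0.05 and a 2-fold difference. The fit was first tested on simulated data. The members, lists and neighbours were chosen with earlier results of these data known. Named are CD276, all kallikrein genes, the genes of each list with an adjusted p under 0.05 (otherwise up to 3 with the highest mean TPM) and the 5 profiles closest to KLK6 and to KLK10. CTU1 was named for its position. Alternatives changed the pseudocount (0.1), the filter, the scaling, the fold threshold, the replicate block, the trend with transcript length and GC content, and the libraries used. Leaving out 2 libraries together was chosen after seeing the data. Same-numbered libraries did not deviate together (correlations of deviations from group means -0.18 to 0.12), so no pairing was used. No 2 libraries held identical values.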

Additional observations from a re-analysis of the deposited data

Results flagged for a closer look

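In groups of 5 libraries, the highest value of 6 of 71 groups examined (39 named genes) stood apart from the other 4 by more than Dixon's 95% limit. Chance passes this limit in about 1 of 20 groups of normally spread values. That rate does not hold for groups listed mostly at 0, such as those of KLK3, KLK12 and KLK15 below. A single value above 0 always passes, so the count is not set against the rate. Among the members, KLK5 was at 1.90 TPM in HCT116-WT library 4, against 1.45 to 1.56 TPM in the others. KLK7 was at 24.03 TPM in HCT116-WT library 3, against 21.43 to 22.16 TPM. KLK12 was at 0.17 TPM in HCT116-CD276KO library 3, against 0 to 0.04 TPM. Of the other genes of the cluster, KLK3 was at 0.02 TPM in HCT116-CD276KO library 4 and KLK15 at 0.23 TPM in HCT116-WT library 3, each listed at 0 in the other 4 libraries of its group. PRSS8 was at 37.52 TPM in HCT116-WT library 3, against 28.85 to 31.36 TPM. HCT116-WT library 3, whose deviations rose with GC content, holds 3 of these 6 values, and the part of that trend in them was not tested. Without it the log2 difference of KLK7 was -0.88 and that of PRSS8 -0.43, both still lower in HCT116-CD276KO.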

How the results depend on the processing

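The number of genes called over the whole table was 66 (63 lower, 3 higher), 112 with a pseudocount of 0.1, 238 with a threshold of 1.5-fold and 61 to 74 with 1 library left out. Quantile normalization gave 51 lower and 9 higher. Of the members, 2 were called, 3 with a pseudocount of 0.1 (KLK5 added), 4 at 1.5-fold (KLK5 and KLK7 added), and 2 with any 1 library left out, with both GC-shifted libraries left out (WT library 3 and knockout library 2), or with the replicate block. Of the listed genes and neighbours, 3 were called, 7 at 1.5-fold, 4 with a pseudocount of 0.1 (SERPINA5 added), 2 with each of the other scalings, the length and GC correction or both GC-shifted libraries left out, and 2 to 3 with 1 library left out (2 without knockout library 2, CDH1 then being at -0.95).

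By the adjusted p alone, 662 genes passed (556 lower, 106 higher). The replicate block, which pairs libraries that share only a number, left 378, and 1 of 5 HCT116-WT libraries correlated best with its own number. Correction for length and GC content gave 1277 (671 lower, 606 higher), median-of-ratios scaling 386 lower and 197 higher, and quantile normalization 385 lower and 253 higher. Leaving out 1 library gave 343 to 857 genes, more than 1.5 times below the full count without WT library 1 (345), 2 (376), 4 (421) or 5 (343) or knockout library 3 (407) or 4 (375). The cause was not tested. These scalings moved the median of all genes from -0.086 to 0.0037, 0.0073 and 0.012.

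The KLK5 difference (-0.84) was -1.65 with a pseudocount of 0.1, and that of KLK7 (-0.90) was -0.81, -0.78 and -0.80 under median-of-ratios, quantile and length and GC processing. Differences turned sign only for genes that were not called, RARG (0.018 with median-of-ratios scaling and 0.020 with quantile normalization) and EMC10 (-0.010 without knockout library 2, up to 0.15 without another). SERPINA1 lost its call with no filter on level, with the block and without any 1 library other than WT 4 (adjusted p 0.0524 to 0.101), and OVOL1 likewise without any other than knockout 1 or 5 (0.0506 to 0.103). ETFB passed the threshold with the length and GC correction (0.0323). The table holds no counts, so levels below 1 TPM could not be given a counting error.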
